A study of Mus musculus with 18 samples.

Results

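The genes described here encode the growth factors that build and stabilize blood vessels, together with the transcription factors that switch them on and a secreted factor that holds vessels back. They were the rows of the count files with the symbols Vegfa, Vegfb, Vegfc, Pgf, Angpt1, Angpt2, Angptl4, Hif1a, Epas1 and Serpinf1, 10 of the 35006 gene names in each file. The list was set by gene name, with earlier results of these data known. All 10 had enough reads to enter the test of 16183 genes.

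The retinal mRNA of male mice was sequenced in 18 libraries to ask whether NACET, the cell-permeable ethyl ester of the antioxidant N-acetylcysteine, changes gene transcription in healthy and diabetic retinas. WT mice were C57BL/6J animals (3 libraries, and 6 from WT mice on NACET). Akita mice were C57BL/6-Ins2Akita/J animals, which carry a mutation in 1 of the Ins2 insulin gene copies and develop insulin-dependent diabetes (4 libraries, and 5 from Akita mice on NACET). NACET treatment ran from week 4 to week 24 of age, dissolved in drinking water at 0.33 mg/mL for a daily dose of 50 mg/kg, and the other mice received plain water. Ins2 is an insulin gene of the pancreas, so the mice model diabetes of the whole body and not a lesion made in the retina. Nothing in the labels says whether each library is a separate mouse, so p-values measure only the spread between these libraries. Each library held 11495596 to 17814479 counts in genes.

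VEGF proteins bind tyrosine kinase receptors on endothelial cells and make vessels sprout and leak, and VEGF-A is the factor blocked by the drugs injected for diabetic macular edema. Angiopoietins act through a separate receptor, Tek, with Angpt1 as its stabilizing ligand and Angpt2 as a ligand that often opposes it. When oxygen is low, the HIF alpha subunits encoded by Hif1a and Epas1 escape degradation, enter the nucleus and bind the core letters ACGTG or GCGTG near their target genes, of which Vegfa is the classic example. That control acts on the HIF proteins, so the mRNA levels reported here say nothing of HIF protein.

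The 3 stretches of DNA shown here hold the letters ACGTG upstream of the annotated gene start for Vegfa and for Adm and Pfkfb3, the other HIF target genes on which the results turn. They are read from the mouse build mm9 (NCBIM37), 5′ to 3′ on the strand of the gene, with the match in capitals (for Adm the match is on the opposite strand and reads CACGT).
Vegfa: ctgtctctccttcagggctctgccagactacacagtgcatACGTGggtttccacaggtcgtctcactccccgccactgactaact
Adm: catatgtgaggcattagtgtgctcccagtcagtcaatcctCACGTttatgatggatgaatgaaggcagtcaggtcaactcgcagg
Pfkfb3: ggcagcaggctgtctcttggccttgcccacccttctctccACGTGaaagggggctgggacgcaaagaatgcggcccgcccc

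The Vegfa stretch lies at chr17:46170205-46170289 on the minus strand, with its match 923 bases upstream of the start. The Adm stretch lies at chr7:117770352-117770436 on the plus strand, 783 bases upstream, and the Pfkfb3 stretch at chr2:11423729-11423809 on the minus strand, 41 bases upstream. On both strands of the 1000 bases upstream of the start, ACGTG was found for 7 of the 10 genes (Vegfa, Vegfb, Pgf, Angpt2, Angptl4, Hif1a and Serpinf1) and not for Vegfc, Angpt1 or Epas1. These 5 letters were present in 44.6% of all 22153 upstream windows of that length, so a match alone is common. GCGTG was present in 56.3% of windows, and a match to CACGTG counts once on each strand. The Vegfa stretch contains the longer run TACGTGGG, and the Adm and Pfkfb3 stretches do not. That run was set by choice and not found by the search. It was present in 0.907% of windows, a background value from which nothing about Vegfa follows. A match describes letters only, and binding was not measured.

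Counts per library were scaled to a common total (counts per 1e6 counts in genes, CPM). These values were divided by the exonic length of each gene to compare levels between genes. Hif1a stood at 198.7 ± 25.9 CPM per kb (SD, n = 18), a level above 98.7% of the tested genes. Epas1, the other HIF alpha subunit gene among the members, followed at 30.0 ± 2.55 CPM per kb. Vegfb, a VEGF with little vessel-growing activity of its own, stood at 5.13 ± 0.857 and Vegfa at 1.91 ± 0.636 CPM per kb. Vegfb was above Vegfa in 18 of 18 libraries on this per kb scale. Before the division by length, their mean levels were 8.23 CPM for Vegfb and 8.21 CPM for Vegfa. The order thus rests on the exonic lengths used, 1605 and 4293 bases.

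Serpinf1, which encodes the anti-angiogenic protein PEDF, stood at 1.74 ± 0.475 CPM per kb and was not separated from Vegfa, which was the higher of the pair in 9 of 18 libraries. Pgf (placental growth factor) stood at 0.684 ± 0.359 and Angpt2 at 0.669 ± 0.222 CPM per kb, and Pgf was above Angpt2 in 10 of 18 libraries. Angptl4, an inhibitor of lipoprotein lipase that responds to fatty acids and to low oxygen, stood at 0.363 ± 0.257 CPM per kb. Vegfc, the growth factor of lymphatic vessels, stood at 0.301 ± 0.159 and Angpt1 at 0.229 ± 0.0969 CPM per kb. Below Epas1, the ranges of every pair of neighbours in this order overlapped.

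**Figure D1:**
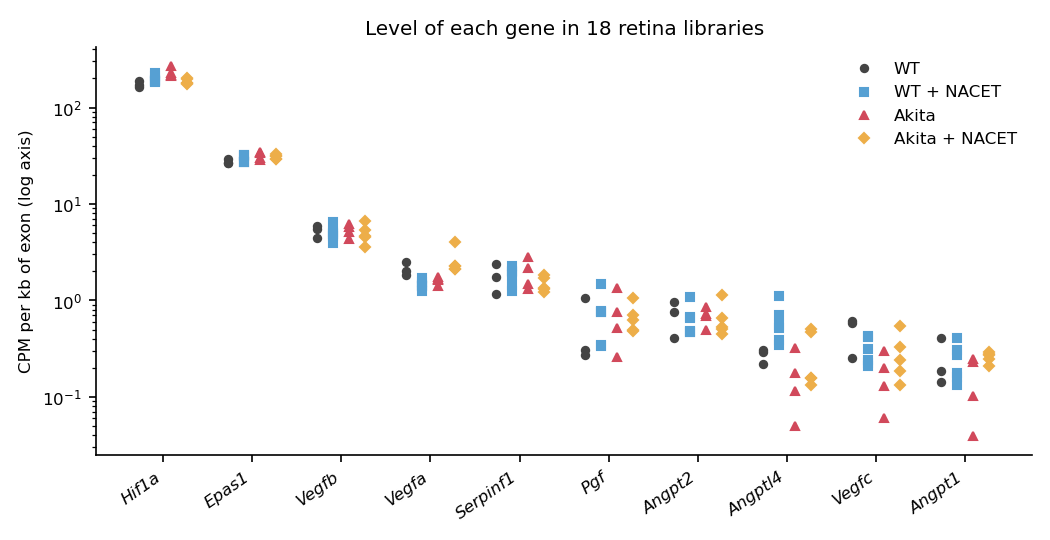
Level of each of the 10 genes in CPM per kb of exon (log axis), 1 point per library, with the 4 groups side by side. Hif1a and Epas1 stand clear of the growth factors, and Angptl4, Vegfc and Angpt1 are lowest and most scattered.

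Low levels set the precision. Vegfa was counted 79 to 264 times per library and Hif1a 12048 to 21421 times, but Vegfc only 2 to 16 times, Angptl4 2 to 64 times and Angpt1 2 to 29 times. Counts were made without regard to strand. The exons of Hif1a share 330 bases with an antisense gene, Gm15283, and those of Angpt1 share 283 bases with Gm17473, so reads there cannot be assigned by strand. Angpt2 lies inside Mcph1 on the other strand, with 0 exonic bases shared.

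The libraries carried the markers of retina. None of 12 markers of retinal neurons was at 0 in every library. They summed to 24813 to 34493 CPM in WT, 30448 to 40797 CPM in WT + NACET, 31904 to 45169 CPM in Akita and 22219 to 29621 CPM in Akita + NACET. Pigment epithelium markers were present too, with a sum over 10 genes of 184 to 314 CPM in Akita, 300 to 880 CPM in WT, 301 to 831 CPM in Akita + NACET and 619 to 1644 CPM in WT + NACET. Endothelial markers summed to 12.4 to 21.2 CPM in Akita, 20.3 to 34.0 CPM in WT, 19.9 to 33.4 CPM in WT + NACET and 21.5 to 35.4 CPM in Akita + NACET. None of the 13 endothelial markers was at 0 in every library, and 2 were under 10 counts in every library. In bulk RNA, fewer cells of a type and less RNA per cell cannot be told apart. The share of uniquely aligned reads outside annotated exons also moved with the groups. It was 14.9 to 17.1% in WT, 9.55 to 16.5% in WT + NACET, 9.67 to 13.3% in Akita and 14.3 to 19.8% in Akita + NACET.

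Vegfa and Hif1a were the members with a change past the test, and they moved in opposite directions. Vegfa (chr17:46153942-46169326, minus strand, 8 exon blocks) measured 10.6, 8.71 and 7.95 CPM in WT and 7.15, 7.59, 6.03 and 6.96 CPM in Akita. In Akita + NACET it measured 9.85, 9.08, 9.19, 9.76 and 17.2 CPM. In WT + NACET it ranged from 5.34 CPM through a median of 6.20 to 7.29 CPM. Every library of WT and of Akita + NACET was above every library of Akita and of WT + NACET. Akita + NACET replicate 5 stood far above the other 4 of its group and also had the highest share of reads outside exons, 19.8%.

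Hif1a (chr12:75002362-75048517, plus strand, 15 exon blocks) measured 1006, 963 and 1115 CPM in WT and 1282, 1240, 1334 and 1605 CPM in Akita. In Akita + NACET it measured 1185, 1071, 1052, 1170 and 1023 CPM. WT + NACET ranged from 1095 CPM through a median of 1128 to 1333 CPM. All 4 Akita libraries were above all WT and Akita + NACET libraries, and WT + NACET overlapped the other groups. Akita replicate 4 was the highest library.

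**Figure D2:**
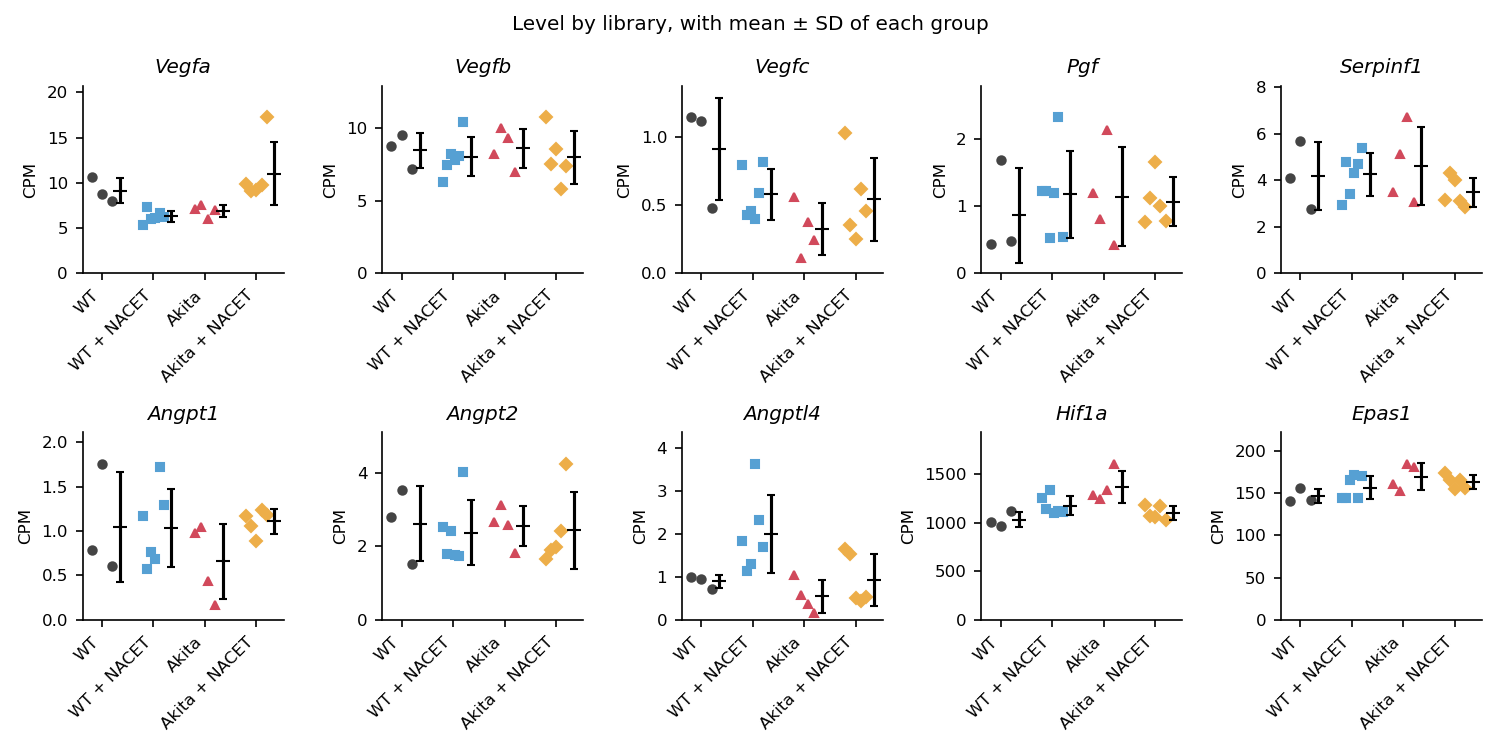
CPM of the 10 genes (linear axes from 0), 1 point per library, with the mean ± SD of each group in black (WT n = 3, WT + NACET n = 6, Akita n = 4, Akita + NACET n = 5). For Vegfa the WT and Akita + NACET points all lie above the WT + NACET and Akita points, and for Hif1a the Akita points lie above WT and Akita + NACET.

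Diabetes was compared with health in Akita vs WT. Hif1a rose 1.33-fold, a log2 fold change of 0.41 ± 0.11 (SE, edgeR quasi-likelihood test, adjusted p = 0.0307). It was the only 1 of the 10 members called at an adjusted p of at most 0.05, where 7.64% of all tested genes were called. Vegfa had a log2 fold change of -0.39 ± 0.20 with a 95% interval of -0.80 to 0.02 (edgeR adjusted p = 0.207), although its groups did not overlap. The groups did not overlap for 2 of the 10 members and for 23.2% of all tested genes. Vegfc was at 1.15, 1.12 and 0.482 CPM in WT against 0.561, 0.116, 0.377 and 0.249 CPM in Akita, and these groups overlapped. Its log2 fold change of -1.47 ± 0.51 did not pass (edgeR adjusted p = 0.0775), and it was -1.80 without WT replicate 3 (edgeR adjusted p = 0.0421). Epas1 had 0.21 ± 0.09 (edgeR adjusted p = 0.147). The count of calls over all genes, 1237 in this comparison, changed with single libraries. Without WT replicate 1 or WT replicate 2 edgeR called 0, with 3021 and 3241 genes at an unadjusted p under 0.05 against 4377 with every library, and without Akita replicate 4 it called 234.

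The Hif1a call in Akita vs WT held in 21 of 27 alternatives, with log2 fold changes of 0.30 to 0.46. It was lost without Akita replicate 4, without WT replicate 1 or without WT replicate 2. The summed markers of retinal neurons were also highest in Akita by their group median, 36147 CPM against 27662 CPM in WT and 26883 CPM in Akita + NACET, and their part in the Hif1a results was not tested. That sum is carried by abundant rod genes such as Gnat1. Of the 12 markers, 4 had values above 0 and 8 below 0 in Akita vs WT, and the 2 called by edgeR, Pax6 and Slc6a9, were both lower.

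The effect of NACET in diabetic retinas was read from Akita + NACET vs Akita. Vegfa rose 1.59-fold, with a log2 fold change of 0.67 ± 0.17 and a 95% interval of 0.30 to 1.03 (edgeR adjusted p = 0.0273), and was higher in 5 of 5 treated libraries than in any untreated library. Hif1a fell by 0.31 ± 0.09 on the log2 scale, with a 95% interval of -0.51 to -0.11 (edgeR adjusted p = 0.0441), and was lower in 5 of 5. These were 2 of the 10 members, where 9.65% of all tested genes were called and 14.1% did not overlap. Serpinf1 had a log2 fold change of -0.41 ± 0.24 and did not pass (edgeR adjusted p = 0.275).

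Leaving out 1 library ended each call in several cases. Without Akita + NACET replicate 5 the log2 fold change of Vegfa was 0.45 (edgeR adjusted p = 0.0680). The call was also lost without Akita replicate 1, 3 or 4, where the log2 fold changes were 0.68, 0.61 and 0.67 (edgeR adjusted p = 0.050001, 0.0612 and 0.0724). Hif1a was called in 12 of 27 alternatives, and 11 of the 18 libraries ended the call when left out. Among these 11 fits its values lay between -0.22, without Akita replicate 4 (edgeR adjusted p = 0.140), and -0.34. The 1562 calls over all genes became 1 without Akita replicate 4, 101 without Akita + NACET replicate 5, 425 without Akita + NACET replicate 2, 808 without Akita replicate 1, 872 without Akita + NACET replicate 4 and 992 without Akita replicate 3. When the outside-exon share of each library was added as a covariate, the log2 fold changes were 0.30 for Vegfa (adjusted p = 0.691) and -0.20 for Hif1a (adjusted p = 0.658), in a fit that called 0 of the 16183 genes in this comparison.

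In healthy retinas NACET went with lower Vegfa values, but no member passed the edgeR test in WT + NACET vs WT. The edgeR test called 0 of the 10 members, against 1.48% of all tested genes. At an unadjusted p under 0.05 there were 2 of the 10 members and 3162 of the 16183 tested genes. DESeq2 called 0 members when fitted to the 4 groups and 1 when fitted to the WT groups alone, where it called 712 of 14806 and 917 of 14863 genes. That 1 member was Vegfa, with a log2 fold change of -0.52 (DESeq2 adjusted p = 0.0404). Vegfa had a log2 fold change of -0.53 ± 0.18 with a 95% interval of -0.91 to -0.16 (edgeR adjusted p = 0.126), and was lower in 6 of 6 treated libraries than in any WT library. Without Akita + NACET replicate 5, the same fold change had an SE of 0.13 and an edgeR adjusted p of 0.0303, since all groups share 1 estimate of the spread. Angptl4 went the other way. It was at 1.01, 0.959 and 0.723 CPM in WT and from 1.14 through a median of 1.77 to 3.63 CPM in WT + NACET, with no overlap. Its log2 fold change of 1.17 ± 0.49 did not pass (edgeR adjusted p = 0.195), and 11.5% of all tested genes did not overlap in this comparison.

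Genotype under treatment was compared in Akita + NACET vs WT + NACET. Vegfa was 1.75-fold higher in the diabetic retinas, with a log2 fold change of 0.81 ± 0.16 and a 95% interval of 0.49 to 1.13 (edgeR adjusted p = 0.00338). It was the 1 member called of 10, where 13.3% of all tested genes were called and 8.01% did not overlap. This call held in 26 of 27 alternatives. The exception was the fit with the share of reads outside exons, at 0.53 (adjusted p = 0.142). Angptl4 was at 1.65, 1.53, 0.511, 0.435 and 0.522 CPM in Akita + NACET and had a log2 fold change of -1.10 ± 0.40 (edgeR adjusted p = 0.0692). That change passed the test in 4 of 26 alternatives, which were DESeq2 on these groups alone and the fits without Akita replicate 4, Akita + NACET replicate 1 or WT + NACET replicate 2.

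Treated diabetic retinas were set against untreated healthy ones in Akita + NACET vs WT. The edgeR test called 0 of the 10 members and 0.00618% of all tested genes. No member had an unadjusted p under 0.05, against 750 of the 16183 tested genes. DESeq2 called 0 members with all groups or with these groups alone, where it called 11 and 28 genes. The log2 fold change was 0.28 ± 0.19 for Vegfa (95% interval -0.11 to 0.67) and 0.10 ± 0.10 for Hif1a (95% interval -0.12 to 0.31). These intervals do not show equal levels.

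**Figure D3:**
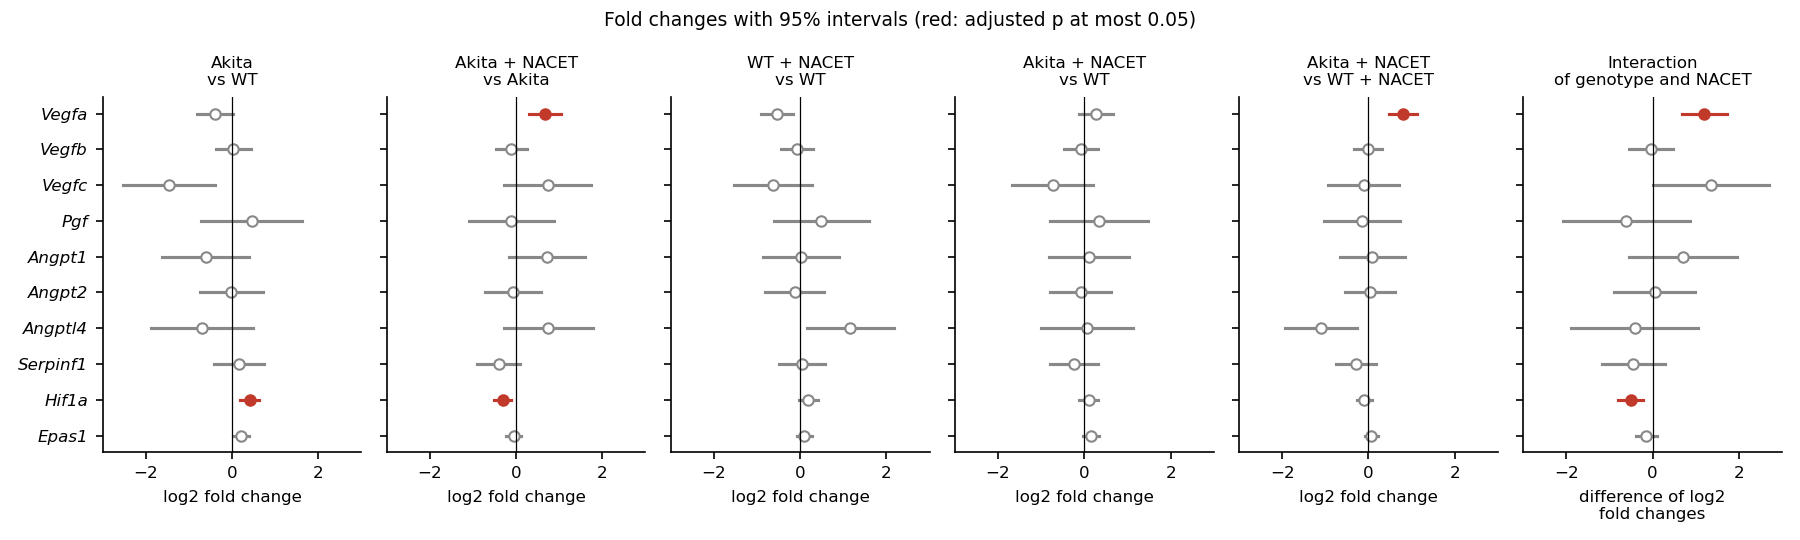
Log2 fold change with its 95% interval for the 10 genes in the 5 comparisons and in the interaction of genotype with NACET, filled red where the adjusted p was at most 0.05. Vegfa is red in 3 panels and Hif1a in 3, and the intervals of Vegfc, Pgf, Angpt1 and Angptl4 are several times wider.

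The difference between the NACET effects in the 2 genotypes was tested as an interaction. For Vegfa the effect in Akita exceeded that in WT by 1.20 ± 0.25 on the log2 scale, with a 95% interval of 0.68 to 1.72 (edgeR adjusted p = 0.00465). For Hif1a the difference was -0.50 ± 0.14 (edgeR adjusted p = 0.0177). These were 2 of the 10 members, where 20.3% of all tested genes were called. The Vegfa interaction passed in 24 of 25 alternatives and was 0.98 without Akita + NACET replicate 5 (edgeR adjusted p = 0.00393). The exception was again the covariate of reads outside exons, at 0.58 (adjusted p = 0.63). The Hif1a interaction was lost with that covariate, at -0.32 (adjusted p = 0.640), and without WT replicate 1 or 2. This share differed between the groups, and its part in the Vegfa and Hif1a results cannot be told apart from theirs.

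**Figure D4:**
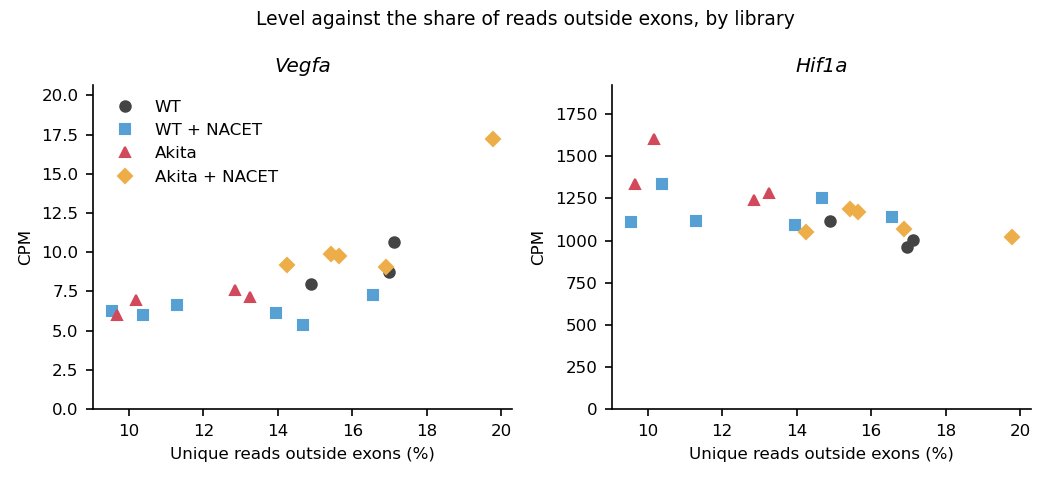
CPM of Vegfa and Hif1a (linear axes from 0) against the percentage of unique reads outside annotated exons, 1 point per library. The library with the highest share, 19.8%, also has the highest Vegfa value, 17.2 CPM. The Akita libraries have shares of 9.67 to 13.3% with Hif1a values of 1240 to 1605 CPM, a range that WT + NACET overlaps. The lowest share, 9.55%, is in WT + NACET replicate 6, where Hif1a is at 1109 CPM.

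The remaining ligands showed no call in any of the 5 comparisons. For Vegfb the log2 fold changes lay between -0.11 and 0.03, and the 95% intervals reached from -0.47 to 0.44. Angpt2 had changes of -0.13 to 0.04, with intervals from -0.81 to 0.73. Pgf had -0.15 to 0.49, with intervals from -1.10 to 1.63. Angpt1 had -0.61 to 0.71, with intervals from -1.61 to 1.59, so that a 2-fold change of Angpt1 in either direction lies within what these libraries allow. In Angpt1 the 5 Akita + NACET libraries were close together, between 0.893 and 1.24 CPM, while Akita spread from 0.166 to 1.04 CPM. Angpt2 was at 1.65, 1.89, 1.98, 2.42 and 4.25 CPM in Akita + NACET, with the highest value in the same replicate 5 that was highest for Vegfa.

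Serpinf1 and Epas1 were not called in any of the 5 either. Serpinf1 had log2 fold changes of -0.41 to 0.16, with intervals from -0.91 to 0.74, and Epas1 had -0.06 to 0.21, with intervals from -0.22 to 0.40. Serpinf1 is made strongly by pigment epithelium. The summed pigment epithelium markers spanned 184 to 1644 CPM over the libraries, and their part in the Serpinf1 values was not tested.

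The receptors through which these ligands act were measured beside them. Kdr, the main signaling receptor for VEGF-A, was at 81.8 ± 11.1 CPM in WT (SD, n = 3) and 64.2 ± 11.5 CPM in Akita (SD, n = 4), and Flt1, the decoy-like receptor shared by Vegfb and Pgf, at 54.5 ± 6.24 and 55.4 ± 18.6 CPM. Neither passed in any comparison. Of the 7 receptors and co-receptors, Nrp2 fell in Akita vs WT, by 0.90 ± 0.23 on the log2 scale (edgeR adjusted p = 0.0270). It was the 1 call of 7, where 7.64% of all tested genes were called. The median over the list was -0.52, against -0.01 over all tested genes. Nrp1, the neuropilin that helps VEGF-A bind Kdr, rose in Akita + NACET vs Akita by 0.54 ± 0.15 (edgeR adjusted p = 0.0351). It was the 1 call of 7, where 9.65% of all tested genes were called. The list median was 0.54 against 0.00 over all genes. The Tek receptor of the angiopoietins was at 2.01 ± 0.830 CPM in WT and 0.603 ± 0.509 CPM in Akita and passed in no comparison by edgeR. DESeq2 with all groups called 2 of the 7, the neuropilins, both in Akita vs WT and in Akita + NACET vs Akita. Over all genes it called 2056 of 15849 and 2331 of 16372 there. The edgeR test called 0 of the 7 in each of the other 3 comparisons, and DESeq2 called 0. At an unadjusted p under 0.05 there was 1 of the 7 in WT + NACET vs WT, against 3162 of 16183 genes. There were 0 in Akita + NACET vs WT and 0 in Akita + NACET vs WT + NACET, against 750 and 5038 genes. Without Akita replicate 4 both neuropilin calls were lost. The Nrp2 call was also lost without WT replicate 1 or 2, with values of -0.64 to -0.97 over these 3 fits, and the Nrp1 call without Akita replicate 1 or Akita + NACET replicate 2, 4 or 5, with values of 0.41 to 0.55 over these 5 fits.

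Endothelial markers were called in the same comparisons as the neuropilins. In Akita vs WT, Cldn5, the tight junction claudin of endothelium, had a log2 fold change of -2.11 ± 0.59 (edgeR adjusted p = 0.0365) and Eng of -1.59 ± 0.45 (edgeR adjusted p = 0.0389), 2 of the 10 endothelial markers tested, against 7.64% of all tested genes, and 9 of the 10 had values below 0. DESeq2 called 3 with all groups and 2 with these groups alone, where it called 2056 of 15849 and 1156 of 13962 genes. Cldn5 rose in Akita + NACET vs Akita by 2.14 ± 0.54 (edgeR adjusted p = 0.0239), the 1 marker of 10 called by edgeR, against 9.65% of all tested genes. In that comparison 6 of the 10 had an unadjusted p under 0.05, against 4700 of the 16183 tested genes. DESeq2 called 4 of the 10 in each of its fits, where it called 2331 of 16372 genes with all groups and 1750 of 15827 with these groups alone. Without Akita replicate 3 or 4 both Cldn5 calls and, in Akita vs WT, the Eng call were lost. The calls in Akita vs WT were also lost without Akita replicate 1, WT replicate 1 or WT replicate 2, and that in Akita + NACET vs Akita without Akita + NACET replicate 2. Over these fits Cldn5 had -1.79 to -2.24 and 1.82 to 2.27, and Eng -1.33 to -1.65. Cldn5 was counted at 0.126 to 0.580 CPM in Akita and 0.784 to 2.77 CPM in Akita + NACET. The part of these markers in the receptor results was not tested.

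Other targets of HIF were examined beside Vegfa, from a list of 18 genes of which 17 were tested. In Akita + NACET vs WT + NACET, 6 of the 17 were called higher and 0 lower. Over all tested genes 13.3% were called, 973 higher and 1175 lower. The list median was 0.17 against 0.00 over all genes. Pfkfb3, which drives glycolysis, was higher by 0.86 ± 0.11 (edgeR adjusted p = 8.74e-05), and the histone demethylase gene Kdm3a by 0.56 ± 0.10 (edgeR adjusted p = 0.00225). Ero1l, an oxidase of the endoplasmic reticulum, was higher by 0.48 ± 0.10 (edgeR adjusted p = 0.00667), and Adm, which encodes the vasodilator adrenomedullin, by 1.39 ± 0.30 (edgeR adjusted p = 0.00667). Mxi1 and P4ha1 were also called. Kdm3a, Ero1l, Mxi1 and P4ha1 had their lowest group mean in WT + NACET. P4ha1 was at 46.3 CPM in WT + NACET, 63.1 in WT, 58.8 in Akita and 59.9 in Akita + NACET. For Ero1l these means were 27.1, 34.4, 34.6 and 38.0 CPM, and for Kdm3a 57.3, 70.5, 80.9 and 84.5 CPM. The Mxi1 call was lost without Akita + NACET replicate 5, at 0.40. The P4ha1 call was lost in turn without 6 of the 18 libraries, which were replicates 1, 2 and 4 of Akita + NACET and 3, 4 and 6 of WT + NACET, at 0.29 to 0.39. DESeq2 called 6 of the list when fitted to the 4 groups and 7 with these groups alone. Over all genes it called 2716 of 16372 and 3016 of 16630. With the covariate of reads outside exons, edgeR called 3 of the list and 194 of 16183 genes.

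Adm and Pfkfb3 were, like Vegfa, lowest in WT + NACET by their group means. In WT + NACET vs WT they fell by 1.43 ± 0.34 (edgeR adjusted p = 0.0362) and 0.60 ± 0.13 (edgeR adjusted p = 0.0208) on the log2 scale. They were 2 calls of the 17, where 1.48% of all tested genes were called, and the list median was -0.11. The groups did not overlap for 5 of the 17, all lower in WT + NACET, against 11.5% of all tested genes. Pfkfb3 ranged from 31.7 to 41.0 CPM in WT, 21.2 to 28.2 CPM in WT + NACET, 23.3 to 28.3 CPM in Akita and 35.1 to 54.1 CPM in Akita + NACET. It rose in Akita + NACET vs Akita by 0.73 ± 0.12 (edgeR adjusted p = 0.0152), and in Akita vs WT it fell by 0.47 ± 0.14 (edgeR adjusted p = 0.0449). Its groups showed the same gaps as those of Vegfa. Adm was low, with means of 2.57 ± 0.607 CPM in WT, 0.934 ± 0.451 in WT + NACET, 1.72 ± 0.509 in Akita and 2.48 ± 0.764 in Akita + NACET. The Adm call in WT + NACET vs WT held in 16 of 26 alternatives and the Pfkfb3 call in 23 of 27, and both were lost without WT replicate 1 or 2. The Pfkfb3 call held in 25 of 27 alternatives in Akita + NACET vs Akita, where it was lost without Akita replicate 4 at 0.69, and in 14 of 27 in Akita vs WT, where 9 of the 18 libraries ended it when left out.

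Other HIF targets were called in other directions. Hk2, a hexokinase, rose in Akita vs WT by 1.05 ± 0.29 (edgeR adjusted p = 0.0391). With Pfkfb3 lower it made 2 calls of 17, where 7.64% of all tested genes were called. The list median was 0.14 against -0.01 over all genes. Ndrg1 fell in Akita + NACET vs Akita by 0.47 ± 0.14 (edgeR adjusted p = 0.0397), with a list median of -0.10. With Pfkfb3 higher it made 2 calls of 17, where 9.65% of all tested genes were called. The Hk2 call held in 19 of 27 alternatives and was lost without Akita replicate 4 (0.67), Akita + NACET replicate 2, or WT replicate 1 or 2. The Ndrg1 call held in 16 of 27, and 7 of the 18 libraries ended it when left out, with values of -0.36 to -0.52. In the interaction Pfkfb3, Adm and Ero1l were higher and Ldha and Ndrg1 lower, so called genes of the list went both ways. These were 5 of the 17, where 20.3% of all tested genes were called. The edgeR test called 0 of the 17 in Akita + NACET vs WT, and DESeq2 called 0. At an unadjusted p under 0.05 there were 4 of the 17, against 750 of the 16183 tested genes.

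**Figure D5:**
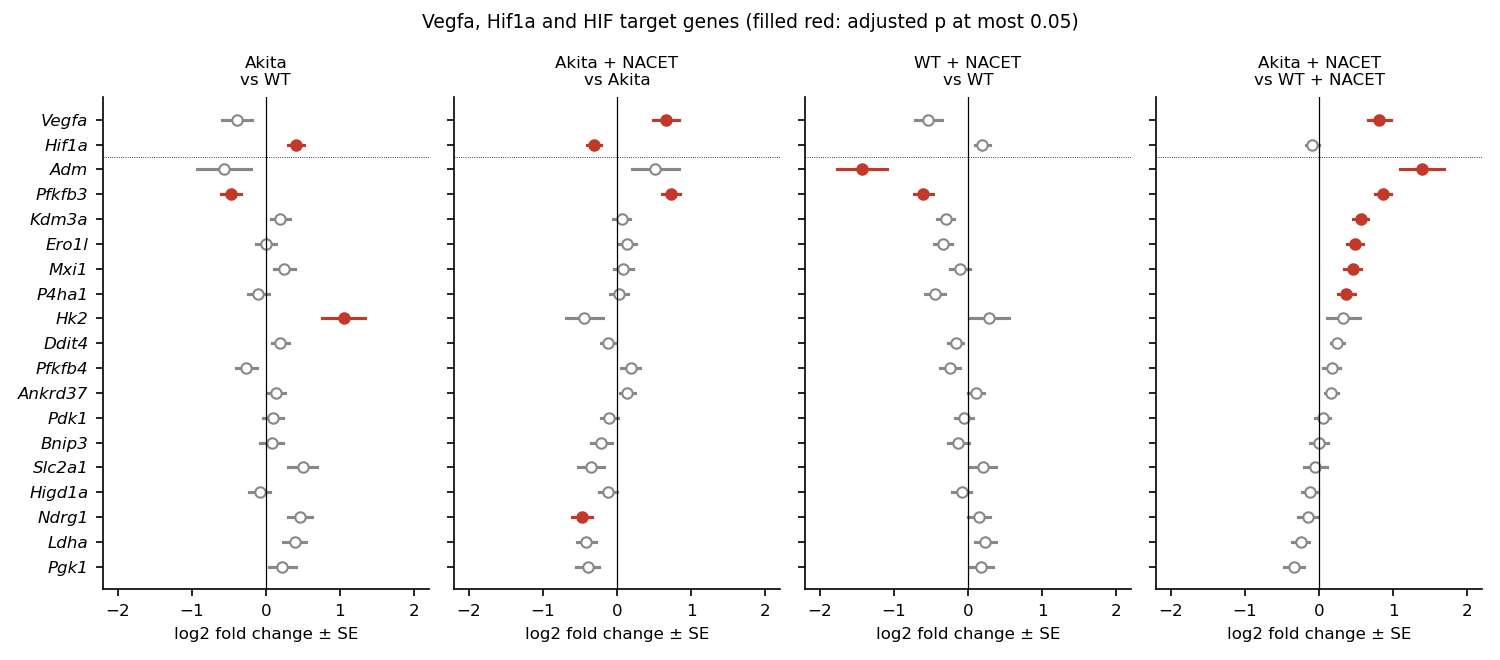
Log2 fold change ± SE of Vegfa, Hif1a and the 17 HIF target genes tested, in 4 comparisons, filled red where the adjusted p was at most 0.05. Vegfa, Adm and Pfkfb3 lie right of 0 in Akita + NACET vs WT + NACET and left of 0 in WT + NACET vs WT, and Ldha, Ndrg1 and Pgk1 have values on the opposite sides.

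Genes of oxygen sensing, which set the stability and partners of HIF, gave 0 calls of 8 by edgeR in each of the 5 comparisons. At an unadjusted p under 0.05 there were 4 for Akita vs WT, 5 for Akita + NACET vs Akita, 2 in WT + NACET vs WT, 0 in Akita + NACET vs WT and 1 in Akita + NACET vs WT + NACET. Over the 16183 tested genes these counts were 4377, 4700, 3162, 750 and 5038. DESeq2 with all groups in the fit called 1 of the 8 in each of the first 2 comparisons, and 2056 of 15849 and 2331 of 16372 genes. In the interaction, Arnt2, a partner subunit of HIF, was higher and Vhl, which marks HIF for degradation, was lower. These were 2 of the 8, where 20.3% of all tested genes were called.

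Angptl4 is also a target of the PPAR fatty acid receptors, and 7 of 9 other PPAR targets were tested. Of these, the carnitine transferase gene Cpt2 fell in Akita + NACET vs Akita, by 0.35 ± 0.09 on the log2 scale (edgeR adjusted p = 0.0217), with a list median of -0.03. Acot1 fell in Akita + NACET vs WT + NACET by 0.55 ± 0.16 (edgeR adjusted p = 0.0319), with a list median of -0.29 against 0.00 over all genes, and all 7 had values below 0. Angptl4 itself had -1.10 there. Cpt2 and Acot1 were each the 1 call of 7 in their comparison, where 9.65% and 13.3% of all tested genes were called. The calls held in 21 of 27 alternatives for Cpt2 and 19 of 26 for Acot1. Leaving out Akita replicate 4, Akita + NACET replicate 2 or Akita + NACET replicate 5 ended the call of Cpt2, with values of -0.28 to -0.35. Leaving out Akita + NACET replicate 3, 4 or 5 or WT + NACET replicate 5 ended that of Acot1, with values of -0.46 to -0.56. In each of the remaining comparisons edgeR called 0 of the 7, with 1 at an unadjusted p under 0.05 in Akita vs WT, 2 in WT + NACET vs WT and 1 in Akita + NACET vs WT. Over the 16183 tested genes these counts were 4377, 3162 and 750. DESeq2 called 0 of the 7 in these comparisons, both with all groups and with the groups of the contrast alone.

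Among other regulators of vessel growth, 12 of 17 genes were tested. Ctgf, a matrix-bound growth factor, fell in Akita vs WT by 1.10 ± 0.27 (edgeR adjusted p = 0.0235), and Thbs2, an anti-angiogenic thrombospondin, fell in Akita + NACET vs WT + NACET by 1.91 ± 0.57 (edgeR adjusted p = 0.0331). In each of those comparisons that was the 1 call of the 12, where 7.64% and 13.3% of all tested genes were called. Thbs2 was at 0.255 to 0.653 CPM in Akita + NACET and 0.304 to 3.33 CPM in WT + NACET, and its call held in 17 of 26 alternatives. It was lost without any 1 of the 5 Akita + NACET libraries and without WT + NACET replicate 1 or 5, with values of -1.59 to -2.08. The Ctgf call held in 21 of 27 and was lost without Akita replicate 4, WT replicate 1 or WT replicate 2, with values of -0.87 to -1.20.

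The pattern of each member over the 18 libraries was set beside that of every other tested gene, as a description. The libraries share 4 groups, and genes were compared on log2 CPM. Closest to Vegfa were Cntfr, a receptor subunit for ciliary neurotrophic factor (Pearson r = 0.911), and Pfkfb3 (r = 0.895). Closest to Hif1a were Herc3 (r = 0.972) and Epb4.1l2 (r = 0.967). Vegfa and Hif1a themselves had r = -0.518. Angptl4 was closest to Wdr72 (r = 0.852) and Prps2 (r = 0.834), Serpinf1 to Tph2 (r = 0.801) and Ccl6 (r = 0.799), and Pgf to Plin4, a lipid droplet protein gene (r = 0.881), and Ogn (r = 0.868). Epas1 was closest to Hp1bp3 (r = 0.830) and Nup214 (r = 0.826). Angpt1 paired with P2ry14 (r = 0.847) and Fxyd5 (r = 0.839), Vegfb with Pax2 (r = 0.822) and S100a13 (r = 0.821), Vegfc with Pcdhb22 (r = 0.811) and Htr2a (r = 0.764), and Angpt2 with Fam115c (r = 0.727) and Ankrd43 (r = 0.722).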

How the data were processed

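Retinal poly(A) RNA of 18 libraries was analysed (TruSeq RNA v2, single end, NextSeq 500). Per the study's methods, the authors aligned reads to mm9 with TopHat (2.1.0 in the submitters' processing notes) and counted them over exons with HTSeq-count (0.11.2), without regard to strand. These raw counts, not normalized, are the deposited values, with 35006 gene names per library. The entry without a name (0.0054% of counts on average) was left out of all steps, as were 206 ribosomal RNA genes (0.977%), which the study also removed. Gene positions were taken from the mm9 annotation, which held 33643 of the names (96.1%).

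All genes were fitted together with the quasi-likelihood test of edgeR 4.0.16 (R 4.3.3), with TMM normalization, robust dispersion, all 4 groups in 1 fit and the default filter (minimum count 10, minimum total 15). The common dispersion came to 0.0347 (biological coefficient of variation 0.186). Genes with a Benjamini-Hochberg adjusted p of at most 0.05 over the 16183 genes tested were called, with no minimum fold. Groups were taken from the sample labels. The script was tested on simulated data. CPM values used TMM library sizes, and intervals are at 95%. Patterns were compared by Pearson's r on log2 CPM with a prior count of 2. DESeq2 1.42.0, the tool of the study, was an alternative, as were its size factors, fits of the compared groups alone, other filters, ribosomal RNA genes kept, the replicate number as a block, a covariate for the outside-exon share and each library left out in turn.

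The members, gene lists and marker lists were chosen with earlier results of these data known. Of the lists, 2 genes are not reported here and were left out of the counts and sums. All members are named. From the other lists, called genes were counted, and at most the 4 with the smallest p in a comparison are given with fold changes. Kdr, Flt1 and Tek are given by their levels as the receptors of the members. Sequences were read from NCBIM37, upstream of the most 5′ start annotated for a protein-coding transcript.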

Additional observations from a re-analysis of the deposited data

Results flagged for a closer look

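Vegfa in Akita + NACET replicate 5, at 17.2 CPM, stood apart from the other 4 libraries of its group, by a gap of 0.905 of the group's range, which is past the 95% limit of Dixon's test for 5 values. Angpt2 in WT + NACET replicate 6, at 4.02 CPM, did so by a gap of 0.655 of the range in a group of 6. These were 2 of 30 groups of members and libraries examined, and chance flags about 1 in 20.

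The NACET effect differed between Akita and WT by the edgeR interaction test for 2 of the 10 members and for 11 of the 51 tested genes of the related lists, which is 21.6%, close to the 20.3% of all tested genes. On the log2 scale the difference was 1.20 for Vegfa and -0.50 for Hif1a. Among HIF targets it was 1.33 for Pfkfb3 (adjusted p = 0.000387), 1.95 for Adm (adjusted p = 0.00944), -0.64 for Ldha (adjusted p = 0.0267) and -0.62 for Ndrg1 (adjusted p = 0.0379), and Ero1l also passed. In oxygen sensing it was 0.81 for Arnt2 (adjusted p = 0.0291) and -0.35 for Vhl (adjusted p = 0.0252). Nrp2 had 1.11 (adjusted p = 0.0146) and Ctgf 1.01 (adjusted p = 0.0417). The fatty acid genes Cpt1a and Cpt2 had -0.52 (adjusted p = 0.0371) and -0.38 (adjusted p = 0.0391). The calls of Pfkfb3 and Adm held with each library left out in turn. That of Nrp2 was lost without WT replicate 2, those of Ldha and Vhl without WT replicate 1 or 2, and that of Arnt2 without Akita replicate 4 or WT replicate 1. Those of Ero1l, Ndrg1, Ctgf, Cpt1a and Cpt2 were each lost in turn without 8 to 13 of the 18 libraries.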

How the results depend on the processing

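Of the 49 log2 fold changes of named genes that were recomputed under the alternatives, 0 changed sign. Among their 1283 recomputed values, 234 lost a call, 7 gained a call and 1042 kept their status. The count of members called in Akita vs WT was 1 and became 0 with edgeR on these groups alone (9 members tested), with the replicate block and with the covariate of reads outside exons. In Akita + NACET vs Akita it was 2 and became 0 in the same 3 fits (8 members tested in the first) and 1 with no filter on low counts. In WT + NACET vs WT it was 0 and became 1 with DESeq2 on these groups alone, and in Akita + NACET vs WT + NACET it was 1 and became 2 with that tool and 0 with the covariate. The interaction had 2, and 0 with the covariate. With each library left out in turn, the counts ranged from 0 to 2, 0 to 2, 0 to 1, 0 to 0, 1 to 2 and 1 to 2 for Akita vs WT, Akita + NACET vs Akita, WT + NACET vs WT, Akita + NACET vs WT, Akita + NACET vs WT + NACET and the interaction. The cause of these changes was not tested.

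No pairing of the samples by replicate number was seen. Over 22 pairs with the same number the correlation of deviations was -0.332 to 0.345, with 4 over 0.1. Of the 18 libraries, 0 were closest to their own number. WT + NACET replicate 6 could not be, since no other group has that number. With the replicate block, all genes called went from 1237 to 507 in Akita vs WT, from 1562 to 219 in Akita + NACET vs Akita, from 2148 to 1363 in Akita + NACET vs WT + NACET and from 240 to 190 in WT + NACET vs WT. Under the block Vegfa had 0.53 and Hif1a -0.29 in Akita + NACET vs Akita (adjusted p = 0.0671 and 0.0982).

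The share of genes called also moved with the tool. In Akita vs WT edgeR called 148 genes with these groups alone, and DESeq2 2056 with all groups. In Akita + NACET vs Akita these counts were 700 and 2331, and in WT + NACET vs WT DESeq2 called 712 with all groups and 917 with these groups alone, against 240. DESeq2 called 28 genes in Akita + NACET vs WT with these groups alone, against 1. The covariate left 0, 0, 61, 1 and 194 genes in the 5 comparisons and 17 in the interaction. Without the filter on low counts, 1010 were called in Akita + NACET vs Akita. With each library left out in turn, all genes called ranged from 0 to 1612 in Akita vs WT, 1 to 1754 in Akita + NACET vs Akita, 72 to 461 in WT + NACET vs WT, 0 to 2 in Akita + NACET vs WT, 860 to 2710 in Akita + NACET vs WT + NACET and 1699 to 3524 in the interaction. Depth limits Vegfc, Angptl4 and Angpt1 most, each with as few as 2 counts in a library.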
